A study of Mus musculus with 4 samples.

Results

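The genes examined here encode 3 families of liver enzymes: the UDP-glucuronosyltransferases (Ugt), the cytosolic sulfotransferases (Sult) and the carboxylesterases (Ces). They were taken by symbol, as every gene of the array annotation whose name is Ugt, Sult or Ces followed by a digit, from probe sets that list a single gene. This gave 43 of 19938 genes, 11 Ugt, 16 Sult and 16 Ces. The study compared livers of 2 genotypes at 2 and at 8 months of age on 4 Affymetrix Mouse Gene arrays: wild type SIRT6 mice (WT), and SIRT6Co/Co ;Alb-Cre mice (KO-labelled), which carry a conditional Sirt6 allele and Cre recombinase under the albumin promoter, active in hepatocytes. The labels trace each array to the livers of 3 pairs of mice, read here as pooled RNA. Each of the 4 groups is therefore 1 array, and the spread between mice cannot be measured. The sources used here do not say whether the WT mice carried Cre, nor the sex, strain or feeding state of any group.

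Glucuronosyltransferases attach a sugar, for most of them glucuronic acid from UDP-glucuronic acid, to bilirubin, steroids, bile acids and drugs, and sulfotransferases attach sulfate from the donor PAPS. Both make lipophilic molecules soluble enough for export into bile or blood. Carboxylesterases cleave ester bonds in the endoplasmic reticulum, in drugs and also in stored triglyceride and cholesteryl ester. In mouse liver, nuclear receptors such as CAR, PXR and PPAR alpha are known regulators of many of these genes.

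The promoter windows of 4 members are shown because these genes gave the main contrasts: Ugt3a1 and Ces3b had the largest genotype differences in each direction, and Ces2a and Ces2e lie in the same cluster and differed in opposite directions. Each window is from RefSeq, build GRCm38.p6, and runs from 250 bases before to 50 bases after the annotated start, 5′ to 3′ on the strand of the gene. In the first pair of sequences capitals mark matches to GTTAAT, a core of the sites of the hepatocyte factor HNF1, or to TATAAA, on either strand. In the second pair they mark every run of at least 10 bases that Ces2a and Ces2e share.
Ugt3a1, higher in KO-labelled livers, chr15:9279579-9279878, plus strand: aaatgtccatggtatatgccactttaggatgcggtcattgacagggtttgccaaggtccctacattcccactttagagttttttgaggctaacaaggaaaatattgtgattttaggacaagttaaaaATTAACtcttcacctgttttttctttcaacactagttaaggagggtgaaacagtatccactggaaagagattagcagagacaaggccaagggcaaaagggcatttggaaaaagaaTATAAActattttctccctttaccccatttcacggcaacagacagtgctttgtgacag
Ces3b, lower in KO-labelled livers, chr8:105083505-105083804, plus strand: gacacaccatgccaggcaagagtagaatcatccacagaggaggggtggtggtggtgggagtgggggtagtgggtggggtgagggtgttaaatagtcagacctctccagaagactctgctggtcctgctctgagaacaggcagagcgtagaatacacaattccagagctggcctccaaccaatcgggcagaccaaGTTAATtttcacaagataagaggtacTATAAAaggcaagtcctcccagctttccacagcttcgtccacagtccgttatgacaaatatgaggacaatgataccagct
Ces2a, lower in KO-labelled livers, chr8:104733753-104734052, plus strand: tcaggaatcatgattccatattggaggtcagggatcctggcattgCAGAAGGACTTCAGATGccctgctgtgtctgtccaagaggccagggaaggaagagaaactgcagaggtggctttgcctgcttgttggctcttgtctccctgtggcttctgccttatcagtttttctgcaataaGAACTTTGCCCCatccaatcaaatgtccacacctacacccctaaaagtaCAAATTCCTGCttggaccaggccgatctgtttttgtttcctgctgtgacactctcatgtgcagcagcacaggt
Ces2e, higher in KO-labelled livers, chr8:104926010-104926309, plus strand: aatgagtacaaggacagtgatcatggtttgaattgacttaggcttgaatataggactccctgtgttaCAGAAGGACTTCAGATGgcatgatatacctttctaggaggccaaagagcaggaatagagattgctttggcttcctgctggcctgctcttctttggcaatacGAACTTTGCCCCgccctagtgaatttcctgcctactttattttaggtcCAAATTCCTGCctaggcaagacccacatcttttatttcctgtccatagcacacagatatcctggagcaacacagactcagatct

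The Ces2a and Ces2e windows share runs of 17, 12 and 11 bases in the same order, CAGAAGGACTTCAGATG, GAACTTTGCCCC and CAAATTCCTGC, which 2, 3 and 8 of all 32851 promoter windows hold on either strand. The Ugt3a1 window has GTTAAT on the minus strand at position -123 from the start and TATAAA at -8. In the Ces3b window the same motifs lie at -56 and -30. RefSeq windows were found for 37 of the 43 members, 4 of them with several starts. GTTAAT was in 9 of the 37 and TATAAA in 9, against 7.1% and 13.6% of all windows of the same length. A member was counted if any of its windows held the motif, whereas the percentages are of single windows. Some member windows are also close copies of each other, so the 37 are not independent. AGGTCA, the core of nuclear receptor sites, was in 10 of 37 against 16.3%, TGACTCA, the AP-1 site, in 4 against 5.2%, and TGACNNNGC, the core of the antioxidant response element, in 0 against 12.4%. TGACNNNGC can overlap TGACTCA, and all motifs were searched on both strands. Of the 9 members that passed the genotype test described next, GTTAAT was found in 2, AGGTCA in 2 (Ces2a and Ugt2b35) and TATAAA in 3. Of the 16 matched members that were tested and did not pass, GTTAAT was found in 3, AGGTCA in 7 and TATAAA in 2. These matches are descriptions of letters within a short window.

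Array values are log2 levels, so a difference of 1 is 2-fold, and levels of different genes are not compared because probe sets differ in brightness. The 40th percentile of mean level over all genes, 3.34, was the minimum for a test, and 29 of the 43 members exceeded it. Of the 14 that did not, 10 were Sult, 3 Ces and 1 Ugt. Their values ran from 1.46 to 3.22, and their KO minus WT differences from -0.29 to 0.19. Among them were Sult3a1 and Sult3a2, amine sulfotransferases, Sult1e1, the estrogen sulfotransferase, and Ugt8a, which makes galactosylceramide. Ces4a, with a mean of 3.35, was the dimmest member tested and Ces5a, with 3.13, the nearest one left out. Because the conditions share 4 arrays, genotype and age were tested with an additive limma model fitted to all 11963 genes past the filter, with Benjamini-Hochberg adjustment. The error in this fit comes from how far the 4 arrays depart from additive effects, with 1 residual degree of freedom per gene moderated across genes. It does not measure the spread between mice or pools. The words rose and fell are used for genes with an adjusted p of at most 0.05, and mean a higher or lower level in the KO-labelled arrays.

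Sirt6 itself read 4.55 and 4.50 in the WT arrays and 4.54 and 4.46 in the KO-labelled arrays at 2 and 8 months (limma adjusted p = 0.92). This probe set did not separate the genotypes, and the exons it covers are not known here. Genotype directions therefore rest on the labels. Hepatocyte markers had the high levels of liver tissue in all 4 arrays, with 5 of 6 measured, albumin at 12.5 to 12.6 and 0 called. The intestinal markers Sis, Cdx2 and Vil1 and all 4 kidney tubule markers were below the filter, which bears on these families because both tissues also express them. The summed level of the 5 enterocyte markers was 7.85 and 7.90 in WT and 7.48 and 7.13 in KO-labelled arrays, carried by Fabp2 and Lgals4, which fell. For the 6 Kupffer cell markers, of which Cd5l, Vsig4 and Timd4 rose, it was 7.70 in both WT arrays and 8.11 and 8.06 in KO-labelled arrays. Of the others, Clec4f, at -0.04 and 0.06, and Adgre1, at 0.14 and 0.20, did not pass, and Marco was below the filter. Among 6 stellate cell markers Acta2 (-1.94) and Col1a1 (-0.56) fell and Reln (0.29) rose, with a summed level of 9.93 to 9.97 that is set mostly by the bright Dcn. Of 5 endothelial markers Cdh5 rose (0.45), of 7 pericentral hepatocyte markers Lgr5 rose (0.63) and Slc1a2 fell (-0.31), and of 3 periportal markers measured Hsd17b13 rose (0.65). Xist, the X-inactivation transcript of female cells, read 4.42 and 3.08 in WT and 2.66 and 2.29 in KO-labelled arrays at 2 and 8 months. With a mean of 3.11 Xist was below the filter and was not tested. The Y-linked Eif2s3y read 7.04 and 7.27 in WT and 7.43 and 7.34 in KO-labelled arrays, and Uty 6.18 and 6.37 against 6.63 and 6.58. Kdm5d, also Y-linked, read 5.57 and 5.53 against 5.64 and 5.56. None of these Y-linked genes passed, with limma adjusted p-values of 0.17, 0.059 and 0.84. Of 5 female-biased liver genes tested, Cyp2b9 (1.71) and Cyp2b13 (1.92) rose and Acot3 (-0.61) and Cyp17a1 fell. The remaining one, Cyp3a44, was at 0.50 and -0.13 and did not pass. Cyp17a1 exceeded the filter only through the 8-month WT array, at 6.16 beside 2.89 to 3.29 in the others, and its difference was -0.37 at 2 months and -3.27 at 8 months. Of 9 male-biased genes tested 2 rose and 2 fell. Beside all these marker counts, 6.81% of all genes tested were called higher and 4.26% lower. The part of other cell types and of sex-biased expression in the differences below was not tested, and in bulk tissue fewer cells of a type and less RNA per cell cannot be told apart.

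Of the 29 members tested, 7 rose, 2 fell and 20 did not pass. Over all genes 11.1% were called, 6.81% higher and 4.26% lower, and among genes above the 60th percentile of level 16.4% were called, where the members gave 11 of 26. Under cyclic loess normalization 15 members and 16.4% of all genes were called. The median over the members was a KO minus WT difference of 0.17 at the younger and -0.03 at the older age, beside 0.01 and 0.00 over all genes tested. Above the 60th percentile of level the medians were 0.25 and -0.04 for the members, beside 0.07 and 0.00 over all genes. Both KO-labelled arrays lay on one side of both WT arrays for 18 members, 11 above and 7 below, beside 54.8% of all genes. A difference of at least 1.5-fold in the same direction at both ages was found for 3 members, beside 2.84% of all genes. Ugt3a1 and Sult5a1 were higher (1.78% of all genes) and Ces3b lower (1.06%). At a single age, 5 members differed at least 1.5-fold at 2 months (6.37% of all genes) and 6 at 8 months (4.34%).

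**Figure D1:**
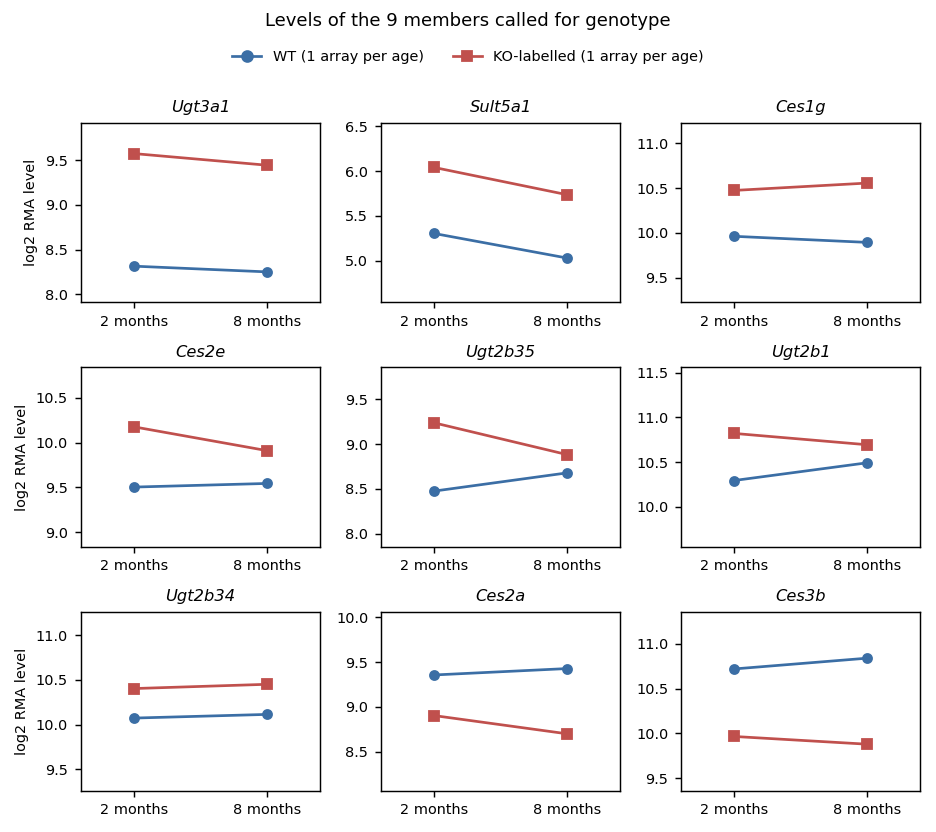
Level of each of the 9 members that passed the genotype test, on the log2 RMA scale, against age, with 1 array for each point and all panels spanning 2 log2 units. Blue circles are WT and red squares KO-labelled arrays; the 2 lines do not cross in any panel, and those of Ugt3a1 lie 1.26 and 1.19 apart.

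Glucuronosyltransferases had 4 genes that rose, 0 that fell and 6 that did not pass. Ugt3a1, of a small subfamily that uses other UDP sugars than UDP-glucuronic acid, led all members. It read 8.32 and 8.25 in the WT arrays and 9.57 and 9.44 in the KO-labelled arrays at 2 and 8 months. Both KO-labelled values were over 1 log2 unit above both WT values, a mean difference of 1.22 (SE 0.08) or 2.34-fold, with a limma adjusted p of 4.6e-07. Its neighbour and closest relative Ugt3a2 read 9.13 and 9.21 in WT and 9.02 and 8.95 in KO-labelled arrays. That order was the reverse of the one in Ugt3a1, but the difference of -0.11 and -0.26 did not pass (limma adjusted p = 0.17). Whether the effects of the 2 genes differ from each other was not tested.

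The Ugt2b enzymes, which conjugate steroids, bile acids and many drugs, lie in a row on chromosome 5 with Ugt2a3. The 3 genes at one end of this row rose, and the other 4 Ugt2b genes did not pass. Ugt2b34 read 10.07 and 10.12 in WT and 10.40 and 10.45 in KO-labelled arrays, a mean difference of 0.33 (SE 0.07, limma adjusted p = 0.011) that was 0.33 at 2 months and 0.34 at 8 months. Ugt2b1 read 10.30 and 10.49 in WT and 10.82 and 10.69 in KO-labelled arrays, with a difference of 0.36 (SE 0.09, limma adjusted p = 0.017). Ugt2b35 read 8.48 and 8.68 in WT and 9.24 and 8.88 in KO-labelled arrays, with a difference of 0.48 (SE 0.11, limma adjusted p = 0.014). In both Ugt2b1 and Ugt2b35 the gap was wider at 2 months, 0.53 and 0.76, than at 8 months, 0.20 in each. Without the intensity trend in the variance, the adjusted p of Ugt2b34, Ugt2b1 and Ugt2b35 was 0.10, 0.11 and 0.088, and without the expression filter that of Ugt2b1 and Ugt2b35 was 0.071 and 0.087.

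The other genes of the row did not pass, although some of their differences at a single age were as large as those of the genes that rose. Ugt2a3 was at 0.38 and 0.15 (limma adjusted p = 0.052), with both KO-labelled arrays above WT. Ugt2b37 was at 0.16 and 0.26, Ugt2b38 at 0.49 and -0.02, and Ugt2b5 at 0.37 and -0.24. Ugt2b36, the next gene after those that rose, read 10.24 and 10.37 in WT and 10.37 and 10.23 in KO-labelled arrays, and the groups overlapped (limma adjusted p = 0.98). The 3 of these with the most alike promoter windows were Ugt2b37, Ugt2b38 and Ugt2b5, in which 274, 261 and 248 of 300 bases were identical for Ugt2b37 against Ugt2b38, Ugt2b38 against Ugt2b5 and Ugt2b37 against Ugt2b5. The median was 58.3% over pairs from different families. Coding sequences of such close relatives may share probe matches, so single values within the subfamily, and likewise within Ces1, Ces2 and Ugt3a, are uncertain. The Ugt1a genes, among them the bilirubin enzyme, had no probe set of their own in this set.

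**Figure D2:**
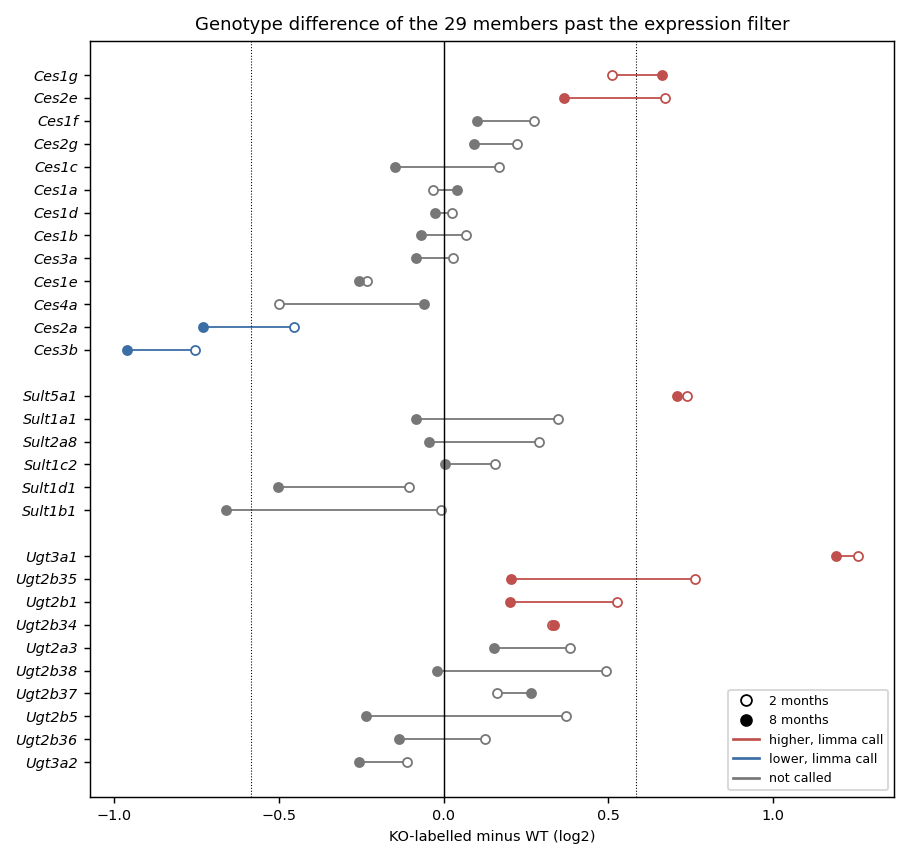
KO-labelled minus WT level (log2) of the 29 members past the filter, by family, with open circles for 2 months and filled circles for 8 months; colour gives the limma call and dotted lines mark 1.5-fold. Ugt3a1 lies farthest right and Ces3b farthest left, and for Sult1b1, Ugt2b5, Ugt2b35 and Ugt2b38 the 2 ages lie over 0.5 apart.

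Among sulfotransferases 6 of 16 genes were bright enough to test, and 1 rose. Sult5a1 read 5.30 and 5.03 in WT and 6.04 and 5.74 in KO-labelled arrays. The KO-labelled array was 0.74 higher at 2 months and 0.71 at 8 months, a mean of 0.72 (SE 0.11, 1.65-fold, limma adjusted p = 0.00099), and within each genotype the 8-month level was the lower one. Sult1d1, which sulfates catecholamines and related phenols, read 8.33 and 8.61 in WT and 8.23 and 8.11 in KO-labelled arrays, and Sult1b1, which acts on thyroid hormones, 5.83 and 6.19 against 5.83 and 5.53. For both genes the difference was larger at 8 months, -0.50 and -0.66, than at 2 months, -0.11 and -0.01, and the additive model gave adjusted p-values of 0.068 and 0.16. The 2 genes are neighbours on chromosome 5. Under cyclic loess both passed, with limma adjusted p-values of 0.0019 and 0.029, and Sult1d1 also after a second quantile normalization, with 0.022. Of 8 alternatives, these were the only ones in which they passed. The largest limma adjusted p-values among the alternatives were 0.19 for Sult1d1 and 0.33 for Sult1b1.

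The phenol sulfotransferase Sult1a1 read 8.85 and 9.04 in WT and 9.20 and 8.96 in KO-labelled arrays, and the bile acid sulfotransferase Sult2a8 9.82 and 9.94 against 10.11 and 9.90. In both genes the KO-labelled array was the higher one at 2 months, by 0.35 and 0.29, and the lower one at 8 months, by a difference of -0.08 and -0.05. Sult1c2 was at 0.16 and 0.00. None of these 3 passed, with adjusted p-values of 0.46, 0.44 and 0.75.

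Carboxylesterases had 2 genes that rose and 2 that fell, spread over 3 subfamilies, while 9 did not pass. Ces3b read 10.72 and 10.84 in the WT arrays and 9.97 and 9.88 in the KO-labelled arrays. Both KO-labelled values were below both WT values, by a mean difference of -0.86 (SE 0.08), or 1.81-fold lower, with a limma adjusted p of 1.4e-05. Ces3a, its neighbour, read 11.87 and 11.86 in WT and 11.90 and 11.78 in KO-labelled arrays, and the groups overlapped (limma adjusted p = 0.87).

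The Ces2 subfamily, which includes lipid hydrolases of liver and gut, was split. Ces2a, which hydrolyses triglyceride and diglyceride, read 9.36 and 9.43 in WT and 8.90 and 8.70 in KO-labelled arrays. It fell with a mean difference of -0.59 (SE 0.09, limma adjusted p = 0.00064), and the gap was -0.45 at 2 months and -0.73 at 8 months. Ces2e read 9.50 and 9.54 in WT and 10.18 and 9.91 in KO-labelled arrays. It rose by 0.52 (SE 0.09, limma adjusted p = 0.0017), by 0.67 at 2 months and 0.37 at 8 months. Ces2g, at 0.22 and 0.09, did not pass, and Ces2b and Ces2f were below the filter.

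In the Ces1 subfamily 1 of 7 genes passed. Ces1g, an esterase known to restrain hepatic triglyceride production, read 9.96 and 9.89 in WT and 10.47 and 10.56 in KO-labelled arrays, a mean difference of 0.59 (SE 0.08, limma adjusted p = 0.00029). Ces1e, a protein that holds beta-glucuronidase in the endoplasmic reticulum, read 10.50 and 10.51 in WT and 10.27 and 10.25 in KO-labelled arrays, and missed the threshold with a limma adjusted p of 0.052. The neighbour between them on the chromosome, Ces1f, was at 0.28 and 0.10 (limma adjusted p = 0.15). Ces1d, a triglyceride hydrolase, was at 0.03 and -0.03, Ces1b at 0.07 and -0.07, the plasma esterase Ces1c at 0.17 and -0.15, and the dim Ces1a at -0.03 and 0.04. Ces4a was at -0.50 and -0.06, with its KO-labelled level at 2 months below the filter value. Along the Ces2, Ces3 and Ces4 row of chromosome 8, Ces2a and Ces3b, which fell, lie on either side of Ces2e, which rose, and of Ces2g and Ces3a, which did not pass.

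**Figure D3:**
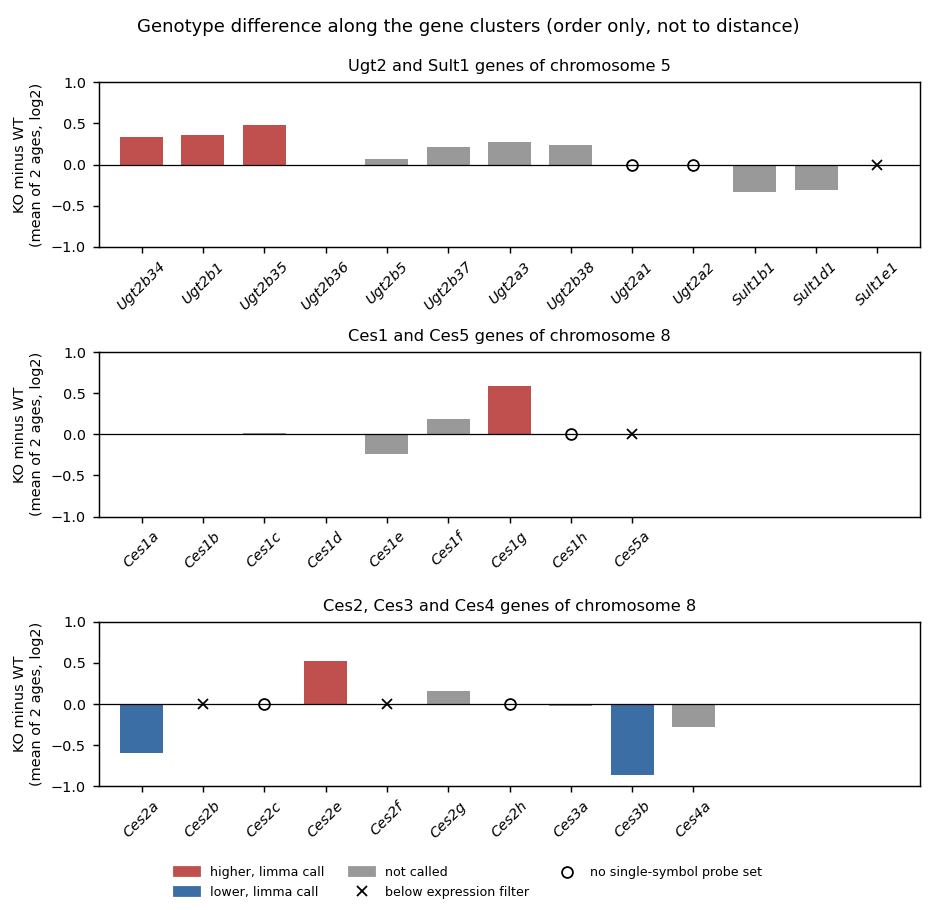
Mean of the KO-labelled minus WT differences at both ages (log2) for members in their order along chromosomes 5 and 8, by RefSeq gene order and not to distance; crosses mark members below the filter and open circles genes without a probe set of their own. The genes that rose at the left end of the Ugt2 row are neighbours, whereas Ces2a and Ces3b, which fell, are separated by Ces2e and others.

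None of the 29 members passed the age test in limma, where 1 of 11963 genes (0.00836%) was called, and 430 genes had an unadjusted p under 0.05. Sult5a1 was the only member among these, with an unadjusted p of 0.023 in limma. No member differed 1.5-fold between 8 and 2 months in either genotype. The differences ran from -0.27 for Sult5a1 to 0.36 for Sult1b1 in WT and from -0.37 for Ugt2b38 to 0.43 for Ces4a in KO-labelled arrays. In WT, 22 of 29 members were higher at 8 months, with a median of 0.07, beside 6037 of 11963 genes and a median of 0.00. In KO-labelled arrays 24 were lower, with a median of -0.13, beside 6918 of 11963 genes and a median of -0.03. The pattern of a higher level at 8 months in WT and a lower one in KO-labelled arrays was held by 19 members, or 65.5%, beside 30.8% of all genes. The 2-month KO-labelled array gave the highest of the 4 values for 18 members (62.1%), among them 8 of 10 Ugt genes, beside 35.3% of all genes, and the 2-month WT array gave the lowest for 12 (41.4% beside 25.5%). Of the 29 members, 26 lay above the 60th percentile of level, and these shares were not taken for genes of like level. The median KO minus WT difference at 2 months over all genes was 0.01 as reported and 0.07 above that percentile. With 1 array per group, whether the genotype difference depends on age was not tested.

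**Figure D4:**
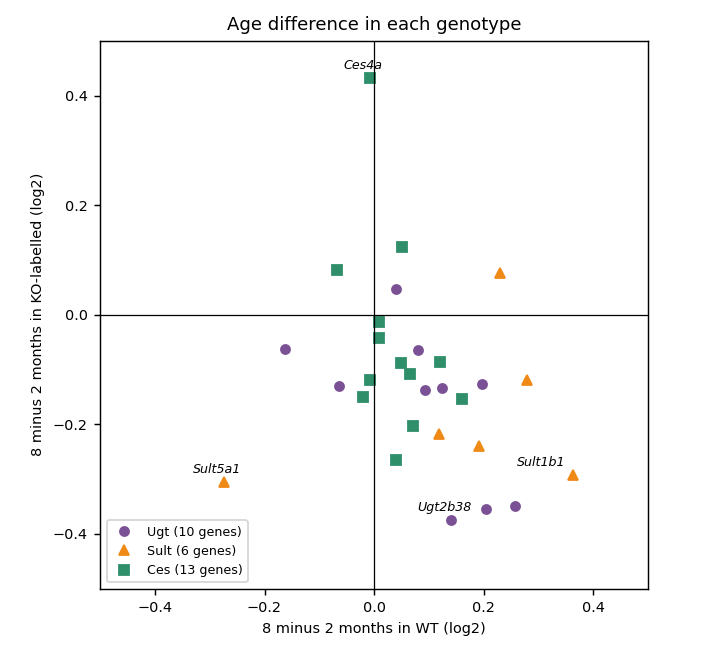
Level at 8 minus 2 months (log2) in KO-labelled arrays against the same difference in WT, 1 point per member past the filter, with shape and colour for the family. Most points lie in the lower right, where WT is higher and KO-labelled is lower at 8 months: 19 of 29.

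Genes that supply, regulate or complement these enzymes were taken from a list of 47, of which 42 exceeded the filter. Of these 7 rose and 3 fell, or 23.8% beside the 11.1% over all genes. Above the 60th percentile of level 11 of 41 were called, or 26.8% beside 16.4% of all genes. The list's median difference was 0.14 at the younger and 0.02 at the older age. On the glucuronidation side, Ugdh, the dehydrogenase that makes UDP-glucuronic acid, read 9.33 and 9.35 in WT and 9.72 and 9.76 in KO-labelled arrays, a rise of 0.40 (SE 0.08, limma adjusted p = 0.0038). Slc35d1, which carries UDP-glucuronic acid into the endoplasmic reticulum, rose by 0.46 (SE 0.08, limma adjusted p = 0.0029), from 7.88 and 7.90 to 8.39 and 8.30. Ugp2, which makes UDP-glucose, was at 0.28 and 0.02 and did not pass. On the sulfation side, the sulfate carrier Slc26a1 fell with a mean of -0.31 (limma adjusted p = 0.043), and the PAPS synthase Papss2 was at -0.07 and -0.29 (limma adjusted p = 0.21). The other PAPS synthase, Papss1, was at 0.13 and 0.33 (limma adjusted p = 0.27), the PAPS carriers Slc35b2 and Slc35b3 at -0.17 and -0.02 and at 0.17 and -0.18, and the phosphatase Bpnt1 at 0.15 and -0.04, and none of these passed. The call of Slc26a1 lay close to the threshold.

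Among exporters of conjugates, Abcc4 rose (0.99 at 2 months and 0.50 at 8 months, limma adjusted p = 0.0045), as did Abcg2 (0.47 and 0.26, limma adjusted p = 0.016). Abcc2 and Abcc3 did not pass. The esterase Aadac rose by a mean of 0.32 (limma adjusted p = 0.019). Of 10 regulators tested, 2 fell and 0 rose. Nr1i3, which encodes CAR, read 9.60 and 9.57 in WT and 8.64 and 8.62 in KO-labelled arrays, a mean difference of -0.95 (SE 0.08) or 1.94-fold lower (limma adjusted p = 3.7e-06). Ppara was at -0.42 and -0.57 (limma adjusted p = 0.0015). Nr1i2, which encodes PXR, was at -0.17 and -0.35 (limma adjusted p = 0.089), and Hnf4a at -0.03 and -0.02 (limma adjusted p = 0.89).

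Of 11 regulator target genes tested, 2 rose and 0 fell. The glutathione synthesis gene Gclc rose by 0.31 and the sulfiredoxin gene Srxn1 by 0.38, with limma adjusted p-values of 0.024 and 0.023. Gclm, at 0.23 and -0.06, Nqo1, at 0.53 and -0.09, Txnrd1, at 0.26 and 0.20, and Gsr, at -0.03 and -0.12, did not pass. Cyp2b10, the classic CAR target, was at -0.17 and -0.50 (limma adjusted p = 0.056). Cyp3a11, a PXR target, lay in the other direction, at 0.62 and 0.06 (limma adjusted p = 0.067). Of the 4 listed genes for breaking down conjugates, Gusb, Arsa and Arsb were tested and did not pass, with limma adjusted p-values of 0.81, 0.79 and 0.65. Without the expression filter the list had 5 calls, or 11.4% beside 3.77% of all genes. Without the intensity trend it had 4, or 9.52% beside 7.07%.

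**Figure D5:**
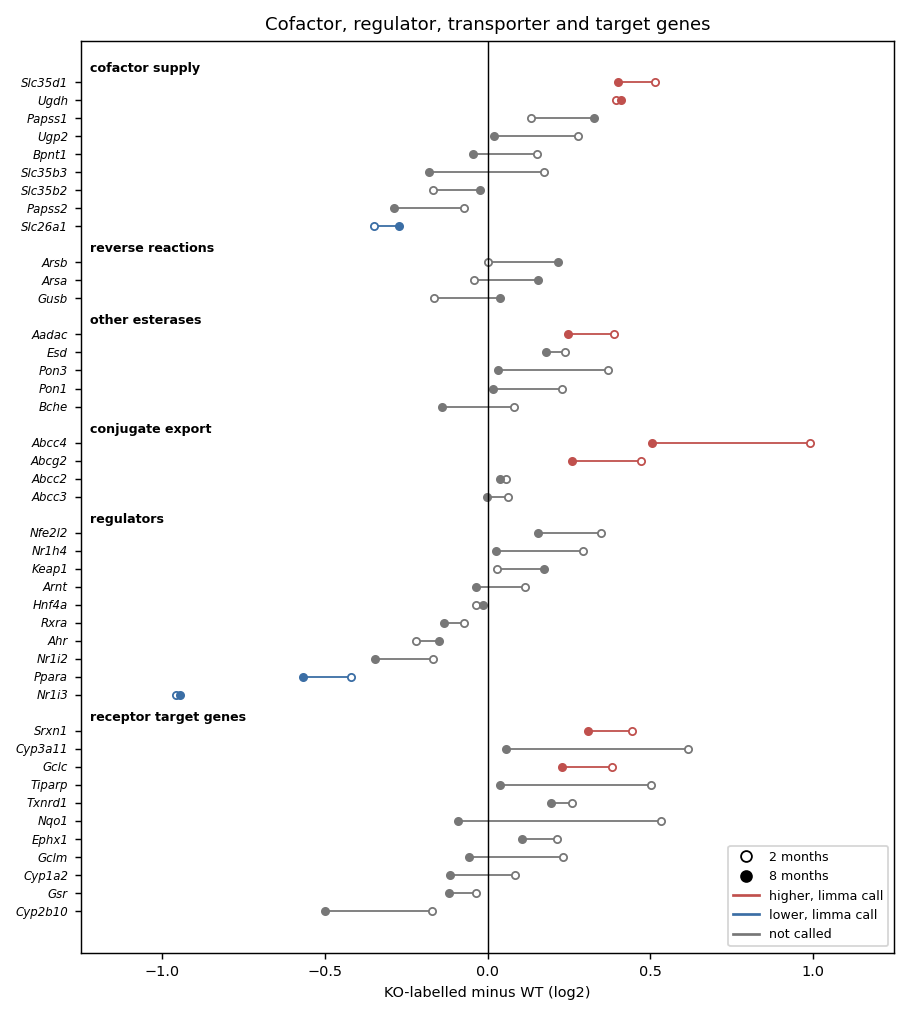
KO-labelled minus WT level (log2) of the 42 listed non-member genes past the filter, by role, with open circles for 2 months and filled circles for 8 months and colour for the limma call. The group labelled receptor target genes also holds targets of regulators that are not receptors. Nr1i3 lies farthest left, with differences of -0.96 and -0.95, and Abcc4 farthest right at 2 months, with 0.99.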

How the data were processed

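The authors deposited 1 log2 value per probe set and array. The submitters' processing notes name RMA and Affymetrix Expression Console 1.0v. By design RMA equalises the distribution of the arrays, so a shift in total RNA is lost, and it shrinks fold changes near background. The table does not state its log base, which is taken from RMA and from values of 0.89 to 13.3. The set of arrays normalized jointly and the build are not given in the sources used here. An array has no read depth, and the number of arrays limits precision.

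Of 35556 probe sets, 21789 list 1 gene symbol, 1621 list several and 12146 are unnamed here. Identifiers were matched to RefSeq (GRCm38.p6), which changed 0 symbols and left 91 unmatched. Probe sets of a gene were averaged, which concerned 1 member, Ces5a. Genotype and age were fitted additively to 11963 genes with limma 3.58.1 in R 4.3.3 (lmFit, eBayes with intensity trend, prior of 11.3 degrees of freedom). The fit was tried on simulated data with additive genotype shifts and noise drawn from its own variance prior. Such data meet the assumptions of the model, so they cannot show how it behaves where effects are not additive. Differences at a single age have no test. Alternatives changed the normalization, filter, probe set rule, trend and variance prior. Values per array are given for members past either test and the 2 highest and 2 lowest of each family, and for some others in the text. Members, lists and motifs were chosen with earlier results of these data known. RefSeq windows for 6 members were not used here.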

Additional observations from a re-analysis of the deposited data

Results flagged for a closer look

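For 3 members the KO minus WT difference had opposite signs at the 2 ages with a size of at least 0.1 at each, a minimum chosen after seeing the data. These are 10.3% of the members, beside 9.5% of all genes, and opposite signs of any size were found for 34.5% and 33.8%. Ugt2b5 was at 0.37 and -0.24, a change between the ages of -0.61. Ces1c was at 0.17 and -0.15, a change of -0.32 (-0.315 before rounding), and Ugt2b36 at 0.12 and -0.13, a change of -0.26. Each rests on 1 array per group and was not tested. Over all members past the filter, 24 of 29 had a smaller or more negative difference at 8 than at 2 months (82.8%), beside 54.1% of all genes. The share over all genes was not matched for level, and 26 of the 29 members lay above the 60th percentile.

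Probe sets that list several symbols were not used for genes. Of 6 such probe sets with symbols of these families, 3 were brighter than the filter, and in all 3 both KO-labelled arrays lay above both WT arrays, as in 29.1% of all genes. The 3 are not separate genes, since 2 of them list the same pair. A probe set listing 8 symbols of the Ugt1a group read 9.16 and 9.18 in WT and 9.32 and 9.21 in KO-labelled arrays, a mean difference of 0.0933. The other 2 each list both symbols of the Ugt3a pair. The first read 9.95 and 10.1 in WT and 10.6 and 10.4 in KO-labelled arrays, a mean difference of 0.49. The second read 9.86 and 9.98 against 10.5 and 10.3, a mean difference of 0.45. Both values lie between those of Ugt3a1 and Ugt3a2 from their own probe sets, 1.22 and -0.18, and none of the 3 was tested.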

How the results depend on the processing

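Under the 8 alternatives, Ugt3a1, Sult5a1, Ces1g, Ces2e, Ces2a and Ces3b kept their call and direction, with adjusted p-values of at most 0.036. The members called for genotype numbered 6 to 12 under 7 alternatives and 15 (9 higher, 6 lower) under cyclic loess, where all 9 reported calls were among them. Ugt3a2 passed there too, with -0.21 and a limma adjusted p of 0.035, but under none of the other 7 alternatives. Its limma adjusted p reached 0.35 among them, and its difference was -0.15 after median centring. Dropping the expression filter left 752 genes (3.77%) called for genotype and dropping the intensity trend 846 (7.07%), against 1325 (11.1%) as reported. The listed non-member genes then had 5 and 4 calls (11.4% and 9.52%), against 10 (23.8%). After centring on array medians 913 genes were higher and 418 lower, and after a second quantile normalization 746 and 669, against 815 and 510. For age the count over all genes, 1 as reported, was 2 after median centring and with the brightest probe set of a gene, 17 under cyclic loess, and 0 without the filter, without the trend, after a second quantile normalization and with robust eBayes. No member was called for age under any of them. The members' median difference at 2 months ranged from 0.03 without the filter to 0.25 with the 60th percentile filter. Under the same settings the median over all genes moved too, from -0.04 to 0.07. The causes were not tested. Leaving out an array would leave no residual degrees of freedom, so the values at each age stand in for it. No paired analysis was possible because each group is 1 array and no replicate numbers pair them; age is already a term of the fit.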
